A study of Mus musculus with 8 samples.

Results

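The axon guidance genes described here are the protein coding genes whose symbols name the ligands and receptors of 4 signalling systems: semaphorins with their plexin and neuropilin receptors, ephrins with their Eph receptors, Slits with their Robo receptors, and netrins with the Unc5 receptors. They were taken from the count table by symbol alone, and 69 of its 31894 genes with an identifier matched. Of these, 48 passed the filter on low counts and could be tested, and 21 did not. The prefix Unc5 also brought in Unc50, a protein of the Golgi membrane, and Unc5cl, a regulator of NF-kB signalling. Neither is a netrin receptor. Both are described apart below, but count among the 69 members and the 48 tested.

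The libraries come from a mouse model of breast cancer brain metastasis (BCBM). PyMT breast tumor cells, whose E-cadherin is tagged with mCFP, a cyan fluorescent protein, and which were enriched for growth in the brain by serial transplantation before organoids were derived from them, were injected intracranially into adult female mice of strain FVB, labelled wild type. Tumor cells with high (E-cadHI) and low (E-cadLO) E-cadherin signal were then sorted from the brain metastasis of each of 4 mice, numbered 57, 58, 67 and 70. Each mouse gave 1 bulk mRNA library of each population, so that there are 8 libraries, 4 per group, and both groups share the PyMT tumor, the mCFP allele, the host strain and the sort. The populations were told apart by the mCFP signal, and the study's methods leave the full gating to a figure. By those methods, sort purity was checked on the mCFP positive cells, because the mCFP negative ones were too few for the check. The comparison asks which genes tell the E-cadLO tumor cells, which the study describes as the infiltrating ones, from the E-cadHI cells of the same metastasis. Counts in genes with an identifier ranged from 9102781 to 15769200 per library, so that 3 counts, the limit that a count of 0 allows, correspond to 0.202 to 0.349 CPM, the counts scaled to the size of each library. This limit covers counting error only.

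As background, these proteins were first known for steering growing axons, which they attract or repel. Class 3 semaphorins are secreted and bind a neuropilin, which passes the signal on through a plexin, whereas the other semaphorins of vertebrates mostly bind plexins directly. Ephrins are bound to the cell surface, by a lipid anchor in the A class and by a transmembrane stretch in the B class, and meet Eph receptor tyrosine kinases on the neighbouring cell. Slits are secreted ligands of Robo receptors and netrins are secreted ligands of Dcc and of the Unc5 receptors. The 4 systems act on the actin cytoskeleton. Many of their members are also used outside neurons, in epithelia, vessels, fibroblasts and glia.

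Before the members are described, differences between the libraries themselves are given. Cdh1, the gene of E-cadherin, measured 93.5 to 132 CPM in the E-cadHI libraries and 59.2 to 181 CPM in the E-cadLO libraries. The groups overlapped, and in mouse 58 the library labelled E-cadLO held the higher value (log2 fold change of -0.17, SE 0.33, adjusted p = 0.809 with edgeR's quasi-likelihood test). Marker lists of other cell types of the brain also moved with the groups. The summed level of 16 microglia and macrophage genes ranged from 39.1 to 316 CPM in E-cadHI and from 252 to 1120 CPM in E-cadLO libraries, and 16 of 16 had a higher mean in E-cadLO. The 12 oligodendrocyte genes ranged from 617 to 8696 and from 1354 to 34497 CPM, with both highest values in mouse 70. The 10 astrocyte genes ranged from 1198 to 3813 and from 770 to 10511 CPM, again with both highest values in mouse 70, and the 13 neuron genes from 39.0 to 455 and from 94.5 to 1118 CPM. The 12 endothelial genes summed to 42.0 to 78.3 CPM in E-cadHI and to 63.5 to 114 CPM in E-cadLO libraries, of which Flt1 alone made up 39.0 to 71.7 and 34.0 to 82.7 CPM. Of these genes, 11 had a higher mean in E-cadLO, and the median log2 fold change of the 8 tested was 1.26. The 13 fibroblast and mural cell genes summed to 10.9 to 65.2 CPM in the E-cadHI libraries, to 22.4 to 190 CPM in the E-cadLO libraries of mice 58, 67 and 70 and to 1196 CPM in the E-cadLO library of mouse 57, where Col1a1 alone stood at 497 CPM. The part of other cells in the values of the members was not tested. In bulk libraries such as these, fewer cells of a type and less RNA per cell cannot be told apart.

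**Figure D1:**
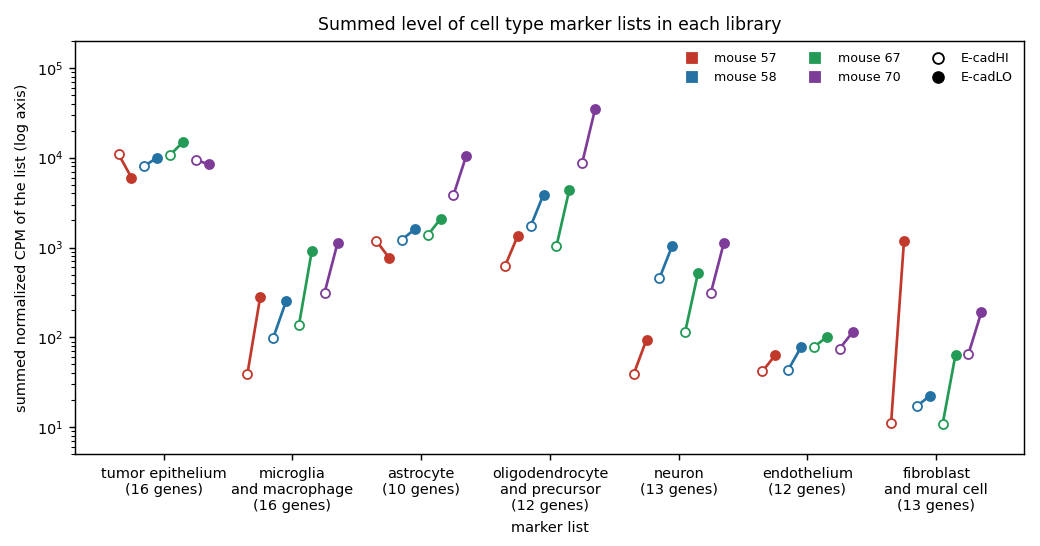
Summed normalized CPM (log axis) of 7 cell type marker lists in each of the 8 libraries, with open points for E-cadHI, filled points for E-cadLO and a line joining the 2 libraries of a mouse. The E-cadLO library of mouse 57 stands at 1196 CPM for the fibroblast and mural cell list, and the E-cadLO library of mouse 70 at 34497 CPM for the oligodendrocyte list.

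The promoter windows of 3 members are given first. Nrp1 had the largest log2 fold change of the class 3 semaphorin receptors, Sema3d that of the semaphorins tested, and Unc5cl was the tested member with the most negative one. Each window of 300 bases runs across the RefSeq start on the plus strand of GRCm38.p6, read 5′ to 3′. Capitals mark CACCTG or its reverse complement CAGGTG, an E-box of the kind that the EMT factors Snail and Zeb bind. The windows lie at chr8:128358823-128359122 (Nrp1), chr5:12382916-12383215 (Sema3d) and chr17:48454651-48454950 (Unc5cl).
Nrp1: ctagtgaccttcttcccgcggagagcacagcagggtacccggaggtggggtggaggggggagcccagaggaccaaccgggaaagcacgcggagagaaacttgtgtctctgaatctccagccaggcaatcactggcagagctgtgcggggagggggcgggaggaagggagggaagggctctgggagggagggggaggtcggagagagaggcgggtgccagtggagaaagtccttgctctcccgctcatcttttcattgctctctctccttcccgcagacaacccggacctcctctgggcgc
Sema3d: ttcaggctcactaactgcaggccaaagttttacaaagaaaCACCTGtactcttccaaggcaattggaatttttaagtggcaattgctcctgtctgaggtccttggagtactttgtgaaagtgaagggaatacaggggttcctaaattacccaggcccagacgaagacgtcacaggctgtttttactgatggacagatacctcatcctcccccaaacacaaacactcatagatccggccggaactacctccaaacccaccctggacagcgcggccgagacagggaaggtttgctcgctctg
Unc5cl: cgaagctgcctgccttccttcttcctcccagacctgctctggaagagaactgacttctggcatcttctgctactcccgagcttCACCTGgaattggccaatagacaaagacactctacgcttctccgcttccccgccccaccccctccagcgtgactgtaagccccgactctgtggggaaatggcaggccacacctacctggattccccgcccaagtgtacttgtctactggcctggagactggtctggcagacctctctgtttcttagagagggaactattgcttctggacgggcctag
The Sema3d window held 1 such motif, 210 bases before the start, and the Unc5cl window 1, 167 bases before it. The Nrp1 window held 0, and its GC content was 64%, against 49.7% for Sema3d and 57% for Unc5cl. Of the 69 members, 60 were found in the promoter table, with 76 windows, of which 11 (14.5%) held the motif on either strand. Over all 32851 windows it was found in 6640 (20.2%). A match of letters is a description and not a bound site.

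In the test across all genes, edgeR's quasi-likelihood test without the mouse as a block, 0 of the 48 members tested passed an adjusted p of 0.05, whether higher or lower, and Nrp1 had the smallest (adjusted p = 0.284). The background was the same, since 0 of 13598 genes (0%) were called higher and 0 (0%) lower in E-cadLO, with a smallest adjusted p of 0.114. At an unadjusted p under 0.05, 5 of the 48 members were higher and 0 lower, against 1109 (8.16%) and 790 (5.81%) of all genes. At the same limit, edgeR's fit with the mouse as a block gave 4 of the 48 higher and 1 lower, against 1671 (12.3%) and 997 (7.33%) of all genes. With the mouse as a block, edgeR called 99 genes higher (0.728%) and 0 lower, among them 0 members (smallest adjusted p of 0.163, Efnb3). DESeq2 called 292 genes higher (2.15%) and 56 lower (0.412%), with Nrp1 as its only member, and DESeq2 with the block called 1029 higher (7.57%) and 222 lower (1.63%), with the members Ephb1 (higher) and Unc5cl (lower). Without the filter, edgeR called 0.0764% of 30100 genes higher, and with the block and a mouse left out it called 3.06% higher and 0.173% lower without mouse 57, 0.462% and 0.022% without mouse 58 and 0.0149% higher without mouse 70, in each case with 0 members.

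By sign, 37 of the 48 members had a log2 fold change above 0 (77.1%, against 55.1% of all genes tested), with a median of 0.48 against 0.06. Without Unc50 and Unc5cl it was 37 of 46, with a median of 0.58. The receptors, without Unc50 and Unc5cl, were above 0 for 21 of 23 tested with a median of 0.65, and the ligands for 16 of 23 with a median of 0.35. In the fit with the block, 34 of the 48 members were above 0 (70.8%, against 52.2% of all genes), with a median of 0.26 against 0.03. The positive values were uneven over the animals. The median within-mouse log2 ratio of E-cadLO over E-cadHI (on CPM plus 0.5) over the 48 members, for mice 57, 58, 67 and 70 in this order, was 0.74, 0.11, 0.18 and -0.01, against 0.02, 0.00, 0.02 and 0.07 over all genes tested. Leaving out Unc50 and Unc5cl gave member medians of 0.87, 0.12, 0.19 and 0.01. Without mouse 57, 32 of 52 members were above 0 (61.5%, against 52.4% of all genes), with a median of 0.20 against 0.02. With the block added it was 28 of 52 (53.8%) with a median of 0.08, against 6942 of 13905 genes with a median of -0.00. Without mouse 57 the receptors had a median of 0.31 and the ligands of 0.22, and with the block added 0.15 and -0.08. Higher in E-cadLO in 4 of 4 mice were 8 of the 48 members (16.7%), close to the 16.8% of all genes tested, and lower in 4 of 4 were 2 (4.17%, against 14.2%). The 8 were Sema4d, Sema6a, Nrp1, Efna2, Efnb3, Ephb1, Robo1 and Unc5b, and the 2 were Efna4 and Ntn1. The 2 groups of 4 libraries did not overlap for 1 of the 48 members, Unc5b, higher in E-cadLO, while 3.9% of all genes tested were apart in this direction and 4.2% in the other.

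**Figure D2:**
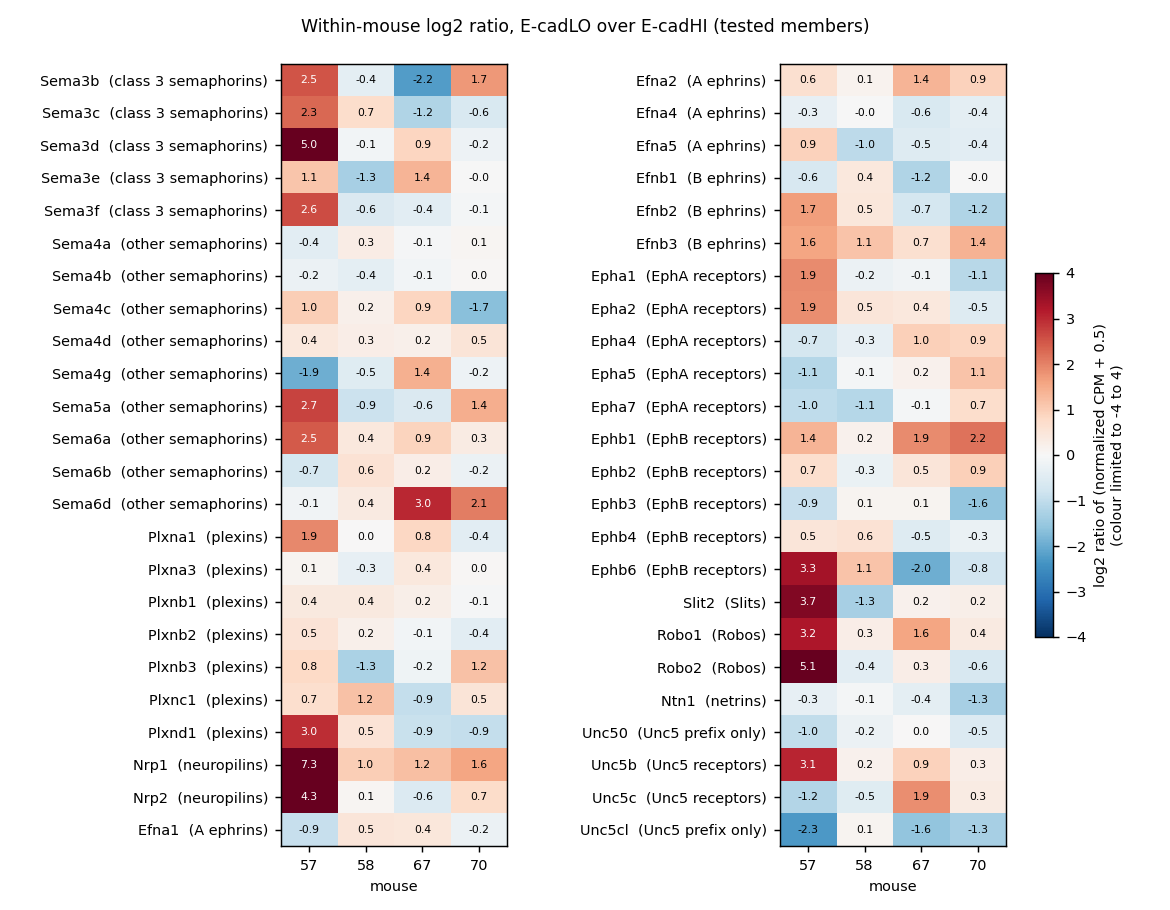
Within-mouse log2 ratio of E-cadLO over E-cadHI (normalized CPM plus 0.5) of the 48 members tested, by family, in each of the 4 mice. Red is higher and blue lower in E-cadLO, with colours limited to -4 and 4; the column of mouse 57 holds 14 ratios above 2, against 0, 1 and 2 in mice 58, 67 and 70.

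The members differed widely in level. Per kb of exon, over all 8 libraries, Unc50 was the most abundant (83.0 CPM per kb), followed by Efna1 (46.9), Plxnb2 (20.6), Efna5 (18.0), Ephb4 (7.10), Ntn1 (6.07), Efna4 (5.70), Epha2 (4.70) and Plxnb1 (3.88). The first 4 of these, Unc50 included, made up 69.8% of the summed CPM per kb of the 69 members. Efna1, Efna5 and Efna4 are A ephrins, Plxnb2 and Plxnb1 B class plexins, and Ephb4 and Epha2 Eph receptors. Group medians lay close together for Efna1 (49.3 CPM per kb in E-cadHI and 45.3 in E-cadLO), Plxnb2 (19.0 and 21.8) and Ephb4 (6.37 and 6.48). They lay further apart for Nrp1, with 0.258 and 1.56 CPM per kb.

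**Figure D3:**
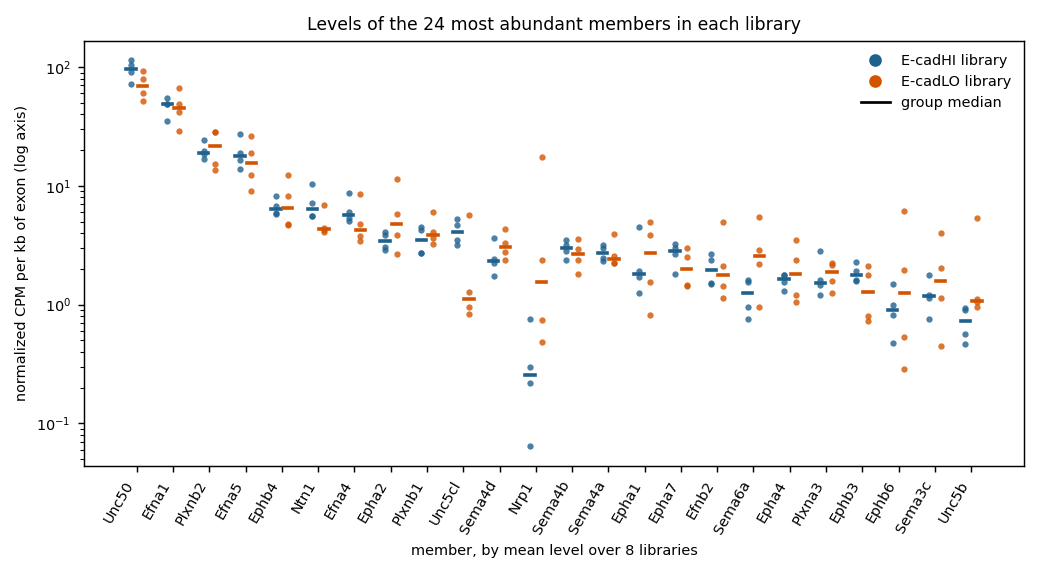
Level of the 24 most abundant members in CPM per kb of exon (log axis), ordered by their mean over the 8 libraries, with blue points for the 4 E-cadHI and orange points for the 4 E-cadLO libraries and a bar at each group's median. The groups overlap for the members shown except Unc5b, and the E-cadLO points of Nrp1 spread furthest, up to its value in mouse 57.

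Of the 7 class 3 semaphorins, the secreted ligands of the neuropilins, 5 were tested, and 5 of 5 had a log2 fold change above 0, with a median of 0.65 (0.34 with the block). Without mouse 57 it was 3 of 5 with a median of 0.21, and with the block added 1 of 5 with a median of -0.42. Sema3c (ENSMUSG00000028780, chr5:17574281-17730268), the most abundant of them, stood at 5.44, 8.68, 8.10 and 12.7 CPM in the E-cadHI libraries of mice 57, 58, 67 and 70, and at 28.9, 14.5, 3.23 and 8.18 CPM in the E-cadLO libraries of the same mice. It was higher in E-cadLO in mice 57 and 58 and lower in the others, and the groups overlapped. Its log2 fold change was 0.65 (SE 0.59, adjusted p = 0.593, edgeR), and -0.21 without mouse 57. Sema3d (ENSMUSG00000040254, chr5:12383385-12588948), whose promoter window is printed above, stood at 1.25, 1.92, 0.966 and 1.58 CPM in E-cadHI and at 55.3, 1.74, 2.15 and 1.33 CPM in E-cadLO. The E-cadLO library of mouse 57 was far above the other 7, which lay within 0.966 to 2.15 CPM. The fitted log2 fold change of 3.40 (SE 1.23, adjusted p = 0.305, edgeR) became 0.21 without that mouse. DESeq2 without the block gave no adjusted p for Sema3d, nor for Nrp2. Sema3a, a repellent of sensory axons, did not pass the filter and was named after its values were seen. It had 0, 1, 0 and 0 counts in E-cadHI and 561, 2, 1 and 0 counts in E-cadLO, or at least 199-fold more CPM in the E-cadLO than in the E-cadHI library of mouse 57, whose 0 counts were set at 3. Sema3b and Sema3f, other ligands of this class, had log2 ratios of 2.50 and 2.62 in mouse 57, and their ratios in the other mice were -0.40, -2.23 and 1.72 for Sema3b and -0.59, -0.42 and -0.08 for Sema3f. Sema3e, a ligand of plexin D1, measured 1.28 to 9.90 CPM over the 8 libraries (log2 fold change of 0.57, SE 0.57), and Sema3g had 3 counts or fewer in each library.

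The other semaphorins, bound to the membrane, numbered 13, of which 9 were tested, 7 with a log2 fold change above 0 and a median of 0.13. Without mouse 57, 8 of 10 were above 0 with a median of 0.39. Sema4d (ENSMUSG00000021451, chr13:51701246-51793747), a ligand of plexin B1 and the most abundant of the 13 per kb, stood at 13.5, 27.7, 18.5 and 17.2 CPM in E-cadHI and at 18.1, 33.1, 21.4 and 25.2 CPM in E-cadLO. In each mouse the E-cadLO library was the higher one, by log2 ratios of 0.42, 0.26, 0.20 and 0.53, while the groups overlapped. The mean ratio was 0.35 ± 0.15 (SD, n = 4 mice), and the log2 fold change of 0.35 (SE 0.29, adjusted p = 0.557, edgeR) kept within 0.29 and 0.42 when each mouse was left out, with or without the block. With the block and all 4 mice it was 0.36 (SE 0.20, adjusted p = 0.337, edgeR). Sema6a (ENSMUSG00000019647), a ligand of A class plexins, stood at 8.43, 14.1, 13.7 and 6.59 CPM in E-cadHI and at 48.2, 19.2, 25.5 and 8.39 CPM in E-cadLO. It too was higher in E-cadLO in 4 of 4 mice, most of all in mouse 57, and the low E-cadLO value of mouse 70 lay among the E-cadHI values. The log2 fold change was 1.24 (SE 0.50, adjusted p = 0.328, edgeR), 1.04 with the block (SE 0.39, adjusted p = 0.218), and 0.61 without mouse 57. Sema6d (ENSMUSG00000027200, chr2:124089969-124667770), which binds plexin A1, stood at 0.209, 2.69, 0 and 5.18 CPM in E-cadHI and at 0.149, 3.61, 3.57 and 23.2 CPM in E-cadLO. Here mouse 57 did not take part, and mice 67 and 70 had the high ratios, 3.02 and 2.06. Its log2 fold change was 1.92 (SE 1.48, adjusted p = 0.535, edgeR), and 1.88 with the block (SE 0.98, adjusted p = 0.318). The E-cadLO library of mouse 70 is also the one with the most oligodendrocyte and astrocyte marker counts. Among the rest, Sema4a and Sema4b, at 10.2 to 21.1 CPM, had mean within-mouse log2 ratios of -0.02 ± 0.29 and -0.17 ± 0.18 (SD, n = 4 mice), whereas Sema4c, Sema4g, Sema5a and Sema6b did not exceed 9.02 CPM in any library. The untested Sema4f, Sema5b, Sema6c and Sema7a did not exceed 5.28 CPM.

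Plexins are the signalling receptors of semaphorins, and 7 of the 9 were tested, with log2 fold changes above 0 in 7 of 7 and a median of 0.59 (0.25 with the block). Without mouse 57, 6 of 9 were above 0, with a median of 0.19 (0.13 with the block). The 2 most abundant were B class plexins. Plxnb2 (ENSMUSG00000036606, chr15:89155549-89171120) stood at 151, 189, 129 and 142 CPM in E-cadHI and at 219, 218, 119 and 106 CPM in E-cadLO. The E-cadLO libraries lay on both sides of the E-cadHI libraries, the first pair above and the second pair below them. Its log2 fold change was 0.11 (SE 0.27, adjusted p = 0.851, edgeR), and -0.07 without mouse 57. Plxnb1 (ENSMUSG00000053646, chr9:109095389-109119917), the receptor of Sema4d, stood at 26.1, 43.5, 26.0 and 40.5 CPM in E-cadHI and at 34.6, 57.5, 30.8 and 39.1 CPM in E-cadLO. The E-cadLO value was the higher one in mice 57, 58 and 67, within overlapping groups (log2 fold change of 0.25, SE 0.27, adjusted p = 0.651, edgeR). Plxna3 had ratios of 0.11, -0.33, 0.42 and 0.04 at 9.57 to 22.3 CPM. Plxnd1, the receptor of Sema3e, had ratios of 2.96, 0.54, -0.90 and -0.94, so that it was high in E-cadLO of mouse 57 and low in that of the last 2 mice. Plxna1, Plxnb3 and Plxnc1 did not exceed 8.11 CPM in any library, and neither did the untested Plxna2 and Plxna4, which stayed at or under 3.98 CPM.

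Neuropilins bind class 3 semaphorins and also members of the VEGF family, and held the highest log2 fold change of the members tested, that of Nrp1. Nrp1 (ENSMUSG00000025810, chr8:128358604-128503363) stood at 0.627, 2.15, 2.90 and 7.46 CPM in E-cadHI and at 172, 4.77, 7.27 and 23.3 CPM in E-cadLO. In each mouse the E-cadLO library was higher, with log2 ratios of 7.26, 0.99, 1.19 and 1.58, although the E-cadHI value of mouse 70 exceeded the E-cadLO values of mice 58 and 67. The group means were 3.29 ± 2.94 and 51.9 ± 80.8 CPM (SD, n = 4), a 15.8-fold ratio that rests on mouse 57. With edgeR the log2 fold change was 3.99 (SE 1.22, adjusted p = 0.284), with the block 2.49 (SE 1.06, adjusted p = 0.252), and without mouse 57 it was 1.47 (adjusted p = 0.681). Without mouse 57 and with the block it was 1.36 (SE 0.36, adjusted p = 0.0769, edgeR). DESeq2 without the block gave 4.05 (SE 1.22, adjusted p = 0.0384), past the threshold, and over all alternatives that gave an adjusted p it ranged from 0.0384 to 0.681. Nrp2 (ENSMUSG00000025969, chr1:62703285-62818695), which favours other class 3 semaphorins such as Sema3f, stood at 1.6, 3.15, 1.93 and 2.11 CPM in E-cadHI and at 41.1, 3.37, 1.14 and 3.84 CPM in E-cadLO. Only the E-cadLO library of mouse 57 was far from the others, and in mouse 67 Nrp2 was lower in E-cadLO. Its log2 fold change of 2.49 (SE 1.01, adjusted p = 0.330, edgeR) became 0.18 without that mouse. The same library holds the high values of Sema3a, Sema3c, Sema3d and Sema3f and the 1196 CPM of fibroblast and mural cell markers. Endothelial cells are also known for neuropilins, and the 8 endothelial markers tested had a median log2 ratio of 1.66 in mouse 57, against 0.09, 0.90 and 0.82 in mice 58, 67 and 70. In mouse 57, 7 of these 8 were higher in E-cadLO, and the log2 ratio of the summed endothelial list was 0.60. In its E-cadHI and E-cadLO library, Tek stood at 0.209 and 12 CPM and the untested Cdh5 at 0.279 and 5.80 CPM. Pecam1 was nearly even, at 0.348 and 0.371 CPM, and Flt1 was lower in E-cadLO, at 40.4 and 34.0 CPM. The part of either cell type was not tested.

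**Figure D4:**
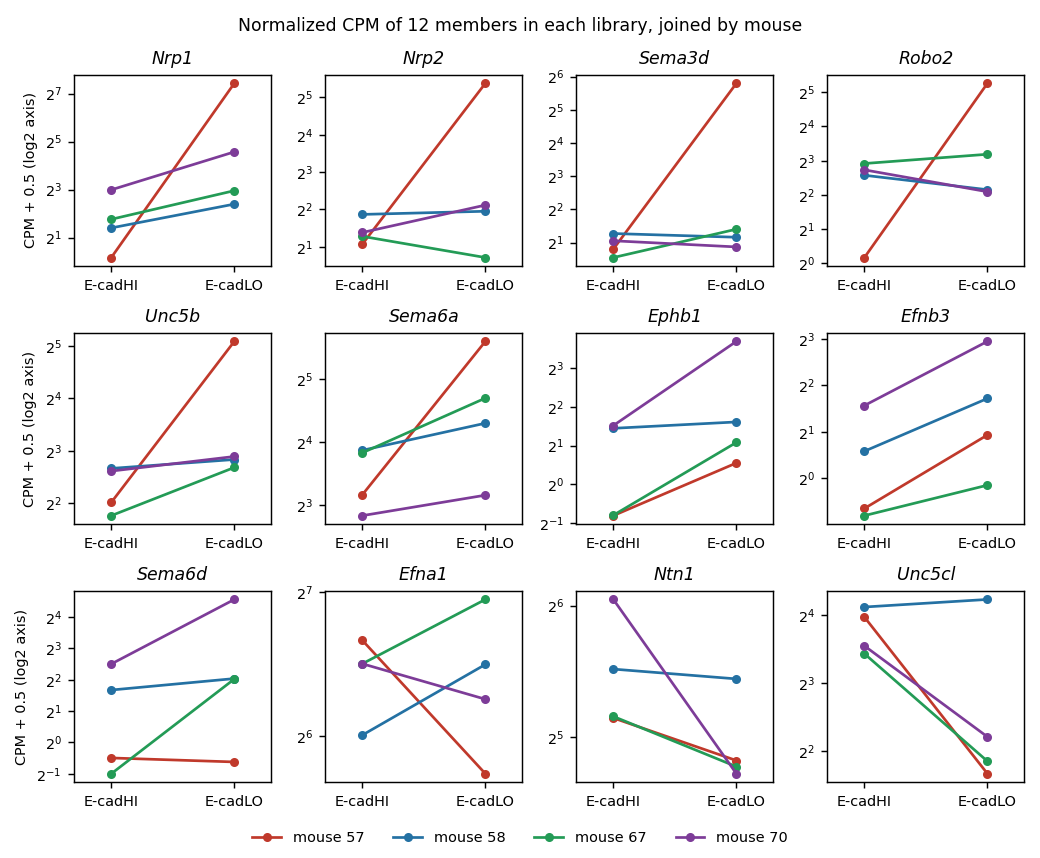
Normalized CPM plus 0.5 (log2 axis, scaled for each panel) of 12 members in the E-cadHI and E-cadLO library of each mouse, joined by a line for each of the 4 mice. Nrp1, Unc5b, Sema6a, Ephb1 and Efnb3 go up in 4 of 4 mice, Nrp2, Sema3d and Robo2 chiefly in mouse 57, and Ntn1 goes down in 4 of 4.

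A ephrins, the lipid-anchored ligands, were among the most abundant members, and 4 of the 5 were tested, 1 with a log2 fold change above 0. Efna1 (ENSMUSG00000027954, chr3:89271733-89281142), a ligand of Epha2, stood at 101, 63.9, 90.2 and 90.2 CPM in E-cadHI and at 53.0, 89.9, 123 and 76.0 CPM in E-cadLO. It was lower in E-cadLO in mice 57 and 70 and higher in the other pair, and the means of 86.4 ± 15.9 and 85.4 ± 29.1 CPM (SD, n = 4) lay within that spread (log2 fold change of -0.02, SE 0.26, adjusted p = 0.978, edgeR). Efna5, a ligand used widely in the brain, measured 56.2 to 110 CPM in E-cadHI and 36.8 to 107 CPM in E-cadLO and was lower in E-cadLO in 3 of 4 mice (log2 fold change of -0.19, SE 0.34). Without mouse 57 the log2 fold change of Efna5 was -0.65 (adjusted p = 0.681, edgeR), and with the block added -0.68 (SE 0.18, adjusted p = 0.0771). Efna2 (ENSMUSG00000003070, chr10:80179482-80190010) was the A ephrin with a positive value and stood at 0.976, 1.23, 0.743 and 1.49 CPM in E-cadHI and at 1.78, 1.40, 2.69 and 3.28 CPM in E-cadLO. It was higher in E-cadLO in 4 of 4 mice at these low levels, with 1 E-cadLO value inside the E-cadHI range (log2 fold change of 1.04, SE 0.50, adjusted p = 0.376, edgeR). Efna4, singled out after its values were seen, stood at 9.69, 13.8, 8.62 and 8.08 CPM in E-cadHI and at 7.58, 13.6, 5.52 and 6.01 CPM in E-cadLO, lower in 4 of 4 mice though by a log2 ratio of -0.02 in mouse 58 (log2 fold change of -0.30, SE 0.37, adjusted p = 0.701, edgeR). The untested Efna3 stayed at or under 0.669 CPM.

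The 3 transmembrane B ephrins were all tested, with a median log2 fold change of 0.25 that was -0.23 without mouse 57. Efnb2 (ENSMUSG00000001300, chr8:8617434-8661242), the ligand of Ephb4, was the most abundant and stood at 10.3, 10.4, 16.2 and 18.4 CPM in E-cadHI and at 34.0, 14.4, 9.76 and 7.83 CPM in E-cadLO. Mice 57 and 58 had the higher Efnb2 value in E-cadLO, the other pair the lower one, with a log2 fold change of 0.25 (SE 0.47, adjusted p = 0.803, edgeR) that turned to -0.51 without mouse 57. Efnb3 (ENSMUSG00000003934, chr11:69554092-69560205), known as a midline barrier to axons of the spinal cord, stood at 0.139, 0.999, 0.0743 and 2.46 CPM in E-cadHI and at 1.41, 2.79, 0.404 and 7.2 CPM in E-cadLO. The mice differed more than the populations, so that the groups overlapped, yet each mouse had the higher value in E-cadLO, with log2 ratios of 1.58, 1.13, 0.65 and 1.38. Some of these rest on few counts: E-cadHI of mice 57 and 67 had 2 and 1, and E-cadLO of mouse 67 had 6. The log2 fold change was 1.69 without the block (SE 1.12, adjusted p = 0.488, edgeR) and 2.0 with it (SE 0.59, adjusted p = 0.163). Efnb1 measured 1.68 to 5.23 CPM over the 8 libraries (log2 fold change of -0.33, SE 0.47).

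EphA receptors numbered 9, and 5 were tested, of which 4 had a log2 fold change above 0 with a median of 0.36. Epha2 (ENSMUSG00000006445, chr4:141301240-141329384), an Eph receptor of epithelia, was the most abundant per kb and stood at 14.2, 19.1, 13.4 and 18.1 CPM in E-cadHI and at 53.4, 27.0, 18.0 and 12.4 CPM in E-cadLO. Mouse 70 alone had the lower value in E-cadLO (log2 fold change of 0.77, SE 0.42, adjusted p = 0.418, edgeR), and the log2 fold change was 0.17 without mouse 57. The within-mouse log2 ratios of Epha2 were 1.87, 0.49, 0.41 and -0.52, and those of its ligand Efna1 were -0.93, 0.49, 0.44 and -0.25. The signs of the pair differed in mouse 57 and were the same in mice 58, 67 and 70. Epha7 (ENSMUSG00000028289, chr4:28813131-28967499) stood at 29.9, 32.0, 26.4 and 18.0 CPM in E-cadHI and at 14.6, 14.3, 24.8 and 29.8 CPM in E-cadLO. It was lower in E-cadLO in mice 57, 58 and 67 and higher in mouse 70, and the ranges overlapped (log2 fold change of -0.35, SE 0.31, adjusted p = 0.583, edgeR). It was -0.18 without mouse 57, -0.10 without mouse 58 and -0.71 without mouse 70. Epha4, a receptor of both ephrin classes, measured 10.4 to 14.3 CPM in E-cadHI and 8.54 to 28.0 CPM in E-cadLO, the latter lower in mice 57 and 58 and higher in mice 67 and 70 than their E-cadHI partners. Epha1 measured 3.21 to 19.6 CPM and Epha5 0.520 to 5.66 CPM over the 8 libraries. The untested Epha3, Epha6, Epha8 and Epha10 stayed at or under 2.82 CPM, and Epha8 had lower values in E-cadLO in 4 of 4 mice at no more than 0.307 CPM, near the limit that a count of 0 allows.

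The 5 EphB receptors were all tested, 4 with a log2 fold change above 0 and a median of 0.72 (0.38 with the block). Without mouse 57, 3 of 5 were above 0 with a median of 0.05, and with the block added 2 of 5 with a median of -0.10. Ephb4 (ENSMUSG00000029710, chr5:137350109-137378669), the receptor of Efnb2 in veins, was the most abundant and stood at 27.4, 38.3, 31.7 and 26.7 CPM in E-cadHI and at 38.0, 57.3, 21.9 and 22.1 CPM in E-cadLO. The same 2 mice as for its ligand Efnb2, 57 and 58, had the higher value in E-cadLO and the other 2 the lower one (log2 fold change of 0.17, SE 0.32, adjusted p = 0.817, edgeR). Ephb3 (ENSMUSG00000005958, chr16:21204755-21223305), a receptor of the intestinal crypt, stood at 10.5, 12.8, 10.7 and 15.3 CPM in E-cadHI and at 5.28, 14, 11.7 and 4.82 CPM in E-cadLO. Mice 57 and 70 had the lower E-cadLO values and mice 58 and 67 slightly higher ones (log2 fold change of -0.47, SE 0.40, adjusted p = 0.571, edgeR, with -0.73 without mouse 58 and -0.14 without mouse 70). Ephb1 (ENSMUSG00000032537, chr9:101922128-102354693), a receptor known from the crossing of retinal axons, stood at 0.0697, 2.23, 0.0743 and 2.37 CPM in E-cadHI and at 0.966, 2.56, 1.62 and 12.5 CPM in E-cadLO. It was higher in E-cadLO in 4 of 4 mice, with log2 ratios of 1.36, 0.17, 1.88 and 2.18, and the groups overlapped because mice 58 and 70 also had more of it in E-cadHI. The E-cadHI libraries of mice 57 and 67 each had 1 count. The log2 fold change was 1.90 (SE 1.21, adjusted p = 0.471, edgeR), 1.11 without mouse 70 and, with the block, 2.29 (SE 0.77, adjusted p = 0.189). DESeq2 with the block called it, at 2.45 (SE 0.80, adjusted p = 0.0316), and its adjusted p ranged from 0.0316 to 0.715 over the alternatives. In the annotation 9 other genes overlap Ephb1, 6 of them on the other strand, and reads of such partners cannot be told apart where the strand was not used. Ephb6, which lacks kinase activity, had log2 ratios of 3.34, 1.15, -1.96 and -0.76, and Ephb2 did not exceed 1.08 CPM.

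Slits were scarce in both populations, and 1 of the 3 was tested. Slit2 (ENSMUSG00000031558, chr5:47983138-48307733) stood at 0.0697, 1.61, 0.297 and 0.878 CPM in E-cadHI and at 6.91, 0.349, 0.404 and 1.12 CPM in E-cadLO. The E-cadLO library of mouse 57 was the high one, and in mouse 58 Slit2 was lower in E-cadLO (log2 fold change of 1.62, SE 1.14, adjusted p = 0.508, edgeR, with -0.58 without mouse 57 and 2.80 without mouse 58). Slit3 (ENSMUSG00000056427), the most abundant Slit per kb, was not tested and stood at 0, 0.384, 0.223 and 0.351 CPM in E-cadHI and at 1.26, 0.814, 0.0673 and 0.140 CPM in E-cadLO. Slit1 stayed at or under 0.845 CPM.

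Of the 4 Robo receptors, 2 were tested. Robo2 (ENSMUSG00000052516, chr16:73892306-74411825) stood at 0.627, 5.46, 7.06 and 6.15 CPM in E-cadHI and at 37.9, 3.95, 8.62 and 3.77 CPM in E-cadLO. The mouse 57 libraries were both the lowest and the highest of the 8, and in mice 58 and 70 Robo2 was lower in E-cadLO. Its log2 fold change of 1.49 (SE 0.89, adjusted p = 0.450, edgeR) turned to -0.21 without mouse 57. Robo1 (ENSMUSG00000022883, chr16:72663149-73046095) stood at 0, 0.307, 0 and 1.40 CPM in E-cadHI and at 4.16, 0.465, 1.01 and 1.96 CPM in E-cadLO. It was higher in E-cadLO in 4 of 4 mice, from levels near the limit of detection, and the E-cadHI value of mouse 70 lay above the E-cadLO values of mice 58 and 67. The log2 fold change was 2.17 (SE 1.27, adjusted p = 0.445, edgeR), 2.64 with the block (SE 1.32, adjusted p = 0.304), and 1.01 without mouse 57. Robo3 and Robo4, the latter a receptor of endothelium, stayed at or under 0.892 CPM.

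Netrin 1 was the only netrin tested and, without Unc50 and Unc5cl, had the most negative log2 fold change of the members. Ntn1 (ENSMUSG00000020902, chr11:68209364-68400823) stood at 34.9, 45.3, 35.2 and 65.6 CPM in E-cadHI and at 27.8, 43.0, 26.9 and 25.9 CPM in E-cadLO. It was lower in E-cadLO in 4 of 4 mice, by log2 ratios of -0.32, -0.07, -0.38 and -1.32, and the E-cadLO value of mouse 58 lay within the E-cadHI range. The group means were 45.2 ± 14.4 and 30.9 ± 8.11 CPM (SD, n = 4), with a log2 fold change of -0.55 (SE 0.27, adjusted p = 0.383, edgeR) that lay between -0.73 and -0.23 (without mouse 70) when each mouse was left out. With the block and all 4 mice it was -0.53 (SE 0.24, adjusted p = 0.27, edgeR). Ntn4 and Ntn5 stayed at or under 0.702 CPM.

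Of the 4 netrin receptors of the Unc5 family, 2 were tested. Unc5b (ENSMUSG00000020099, chr10:60762610-60831581), known from tip cells of vessels, stood at 3.55, 5.84, 2.90 and 5.62 CPM in E-cadHI and at 33.4, 6.63, 5.92 and 6.92 CPM in E-cadLO. The 4 E-cadLO libraries were all above the 4 E-cadHI libraries, by a gap between 5.84 and 5.92 CPM, and mouse 57 was the highest. The log2 fold change was 1.56 (SE 0.62, adjusted p = 0.326, edgeR) and 0.42 without mouse 57, and Unc5b was singled out after its values were seen. Unc5c measured 0.594 to 4.61 CPM with log2 ratios of -1.16, -0.47, 1.87 and 0.32, and Unc5a and Unc5d stayed at or under 1.49 CPM.

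The remaining pair share the prefix only. Unc50 (ENSMUSG00000026111, chr1:37430139-37439124) stood at 163, 113, 144 and 181 CPM in E-cadHI and at 82.0, 95.5, 145 and 125 CPM in E-cadLO. It was lower in E-cadLO in mice 57, 58 and 70 and nearly even in mouse 67 (log2 fold change of -0.43, SE 0.22, adjusted p = 0.404, edgeR, and -0.28 without mouse 57). Unc5cl (ENSMUSG00000043592, chr17:48454901-48539714) stood at 15.2, 16.9, 10.3 and 11.2 CPM in E-cadHI and at 2.67, 18.3, 3.10 and 4.12 CPM in E-cadLO. The E-cadLO values of mice 57, 67 and 70 lay below the whole E-cadHI range and that of mouse 58 above it. The log2 fold change was -0.94 without the block (SE 0.62, adjusted p = 0.483, edgeR) and -1.39 with it (SE 0.46, adjusted p = 0.186). Without mouse 58 it was -1.88 without the block (SE 0.39, adjusted p = 0.306, edgeR) and -1.87 with it (adjusted p = 0.133), and without mouse 57 it was -0.62 without the block. DESeq2 with the block gave -1.37 (SE 0.46, adjusted p = 0.0393), past the threshold, within a range of 0.0393 to 0.814 over the alternatives.

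The high values of the E-cadLO library of mouse 57 ran through ligands and receptors alike. Of the 48 members tested, 14 (29.2%) had a log2 ratio above 2 in that mouse, a limit set after the values were seen, against 7.6% of all genes tested. Mouse 58 had 0 such members (0%, against 0.897%), mouse 67 had 1 (2.08%, against 4.88%) and mouse 70 had 2 (4.17%, against 2.2%). The 14 were Sema3b, Sema3c, Sema3d, Sema3f, Sema5a, Sema6a, Plxnd1, Nrp1, Nrp2, Ephb6, Slit2, Robo1, Robo2 and Unc5b, 7 ligands and 7 receptors. The E-cadLO library of mouse 57 was the highest of the 4 E-cadLO libraries for 19 members (39.6%, against 26.5% of all genes tested), and the E-cadHI library of the same mouse was the highest of its group for 2 (4.17%, against 25.4%). Several ratios thus set a high E-cadLO value against the lowest E-cadHI value, as for Robo2, Nrp1 and Slit2. The epithelial marker list, in which Krt8, Krt18 and Epcam stand for the tumor cells, summed to 10883 CPM in E-cadHI and to 5995 CPM in E-cadLO of that mouse, against 8092 to 10732 and 8411 to 14927 CPM in the others.

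Co-receptors and effectors of the 4 systems formed a list of 56 genes, of which 52 were tested. A log2 fold change above 0 was found for 30 of the 52, against 55.1% of all genes tested, with medians of 0.12 and 0.06. Of the 52, 0 passed edgeR's test without or with the block (smallest adjusted p of 0.204 and 0.102). At an unadjusted p under 0.05 without the block, 6 were higher and 0 lower, against 8.16% and 5.81% of all genes. With the block, 8 were higher and 2 lower, against 12.3% and 7.33%. Higher in 4 of 4 mice were 13 (25%) and lower 5 (9.62%), against 16.8% and 14.2%. The groups did not overlap for 3 of the 52 with E-cadLO higher and for 0 with E-cadLO lower, against 3.9% and 4.2% of all genes. The netrin co-receptor Dcc was not tested and stayed at or under 1.04 CPM. Neo1, its relative that binds repulsive guidance molecules, stood at 23.8, 29.4, 28.7 and 23.8 CPM in E-cadHI and at 83.4, 38.6, 48.5 and 27.0 CPM in E-cadLO, higher in 4 of 4 mice (log2 fold change of 0.90, SE 0.32, adjusted p = 0.303, edgeR). Rnd1, a GTPase that binds plexins, stood at 0.488, 0.845, 0.669 and 1.32 CPM in E-cadHI and at 7.50, 4.30, 6.33 and 3.21 CPM in E-cadLO. The groups did not overlap, and Rnd1 was higher in E-cadLO in 4 of 4 mice (log2 fold change of 2.68, SE 0.52, adjusted p = 0.204, edgeR). DESeq2 called Rnd1 without and with the block, and Ablim1, an actin-binding protein, with it. Ablim1 measured 1.6 to 5.44 CPM in E-cadHI and 7.33 to 39.5 CPM in E-cadLO, with no overlap (log2 fold change of 2.46, SE 0.67, adjusted p = 0.269, edgeR). Crmp1, which mediates semaphorin 3A signals in neurons, and Nrcam, an adhesion molecule that binds neuropilins, had log2 fold changes of 1.74 (SE 1.16) and 1.79 (SE 1.42), and the adaptor Nck2 one of -0.50 (SE 0.29). Nrcam was called by edgeR with the block when mouse 57 was left out. Dpysl3, looked at after its values were seen, stood at 212 CPM in the E-cadLO library of mouse 57 and at 0.139 to 8.95 CPM in the other 7. The shared effectors Rac1 and Cfl1 had log2 fold changes of -0.20 (SE 0.31) and -0.03 (SE 0.17).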

How the data were processed

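Bulk mRNA of E-cadHI and E-cadLO cells sorted from the BCBM of 4 mice was measured in 8 libraries. Per the study's methods and the submitters' processing notes, the authors mapped single reads with HISAT2 2.1.0 to GRCm38 and counted reads per gene (the methods name Icount, the notes HTSeq), and the deposited table holds raw counts without normalization. Use of strand and treatment of reads matching several genes are not given in the sources used here, and 41 of the 69 members are overlapped by another annotated gene. The 365 of 32259 entries without a gene identifier (0.0636% to 0.0954% of counts) were left out.

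Counts were tested in edgeR 4.0.16 (R 4.3.3) with TMM normalization, filterByExpr by group and the quasi-likelihood test without a block, and p-values were adjusted by Benjamini-Hochberg across 13598 genes (threshold 0.05). CPM are TMM normalized. Within-mouse ratios used CPM plus 0.5. Exon lengths are from GENCODE M21, in which 60 of the 69 members had the coordinates of the table. The labels give both libraries of an animal its number, so the mouse pairs them. The deviations of paired libraries from their group means correlated at 0.381, 0.248, 0.272 and 0.692, and those of libraries of different mice at 0.144 at most. No 2 libraries agreed within sampling noise (smallest chi-square per degree of freedom 27.7). That the mice are separate animals is from the labels.

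Members given with values in each library are, in each family, the most abundant per kb and the one with the smallest p in the blocked fit, and over all families the 5 highest and 5 lowest log2 fold changes. Further ones were named after their values were seen. At most 6 pathway partners were named by p, with others named after their values were seen. The members and gene lists were chosen with earlier results of these data known. Alternatives were the mouse as a replicate block, DESeq2 1.42.0, DESeq2 size factors, no filter, a mean count of at least 50, a robust fit, another pseudocount of 2 CPM, and each mouse left out. The steps were tested on simulated counts drawn without differences between mice, which does not cover the spread between mice in these libraries. Figures and tables were made with Python 3.11, pandas 2.3 and matplotlib 3.10.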

Additional observations from a re-analysis of the deposited data

Results flagged for a closer look

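In 17 of 91 sets of 4 libraries or ratios examined, 1 mouse stood further from the other 3 than Dixon's test allows, and 8 of the 17 were values of mouse 57. Chance flags about 1 in 20 such sets, or 4.55 here, but this is no measure for these sets, since members were named partly for high log2 fold changes that single libraries carry, and the CPM and ratios of a member overlap. In the E-cadLO group, mouse 57 stood apart with 55.3 CPM of Sema3d, 172 CPM of Nrp1, 41.1 CPM of Nrp2, 6.91 CPM of Slit2 and 37.9 CPM of Robo2. The within-mouse log2 ratios of mouse 57 stood apart for Nrp1 (7.26) and Robo2 (5.09), and so did the summed fibroblast and mural cell markers of its E-cadLO library (1196 CPM). In mouse 70, the E-cadLO library stood apart with 23.2 CPM of Sema6d and 12.5 CPM of Ephb1. The same library stood apart for the summed markers of astrocytes (10511 CPM) and oligodendrocytes (34497 CPM), and the E-cadHI library of that mouse for those of astrocytes (3813 CPM), oligodendrocytes (8696 CPM) and fibroblasts and mural cells (65.2 CPM). In mouse 58, the E-cadLO library was the high one for Ntn1 (43.0 CPM) and Unc5cl (18.3 CPM), both of which had lower values in the other E-cadLO libraries. Whether the marker levels and the member levels of a library share a source was not tested.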

How the results depend on the processing

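The count of members called was 0 in each direction with edgeR under each alternative run, also with the replicate block and with each mouse left out, and the threshold was passed under DESeq2 alone: without the block by 1 member higher (Nrp1), with it by 1 higher (Ephb1) and 1 lower (Unc5cl). Pathway partners called higher were 1 and 2 with DESeq2 without and with the block, and 0 to 1 when a mouse was left out. Over all genes, the replicate block gave 99 higher and 0 lower, DESeq2 292 and 56, DESeq2 with the block 1029 and 222, and no filter 23 and 0. When a mouse was left out, 0 were called without the block and 0 to 425 higher and 0 to 24 lower with it, the most without mouse 57 (425 and 24), then 63 and 3 without mouse 58, 0 and 0 without mouse 67 and 2 and 0 without mouse 70. The median log2 fold change of the members tested lay between 0.20 and 0.57 without the block and between 0.08 and 0.50 with it. Of 24 named members tested, 17 kept their sign in each setting in which they could be fitted (12 to 15 settings) and 7 did not. Efna1 turned to 0.02 under the mean count filter. When a mouse was left out, the log2 fold change without the block, and then with it, ranged from -0.22 to 0.22 and -0.23 to 0.21 for Efna1, from -0.21 to 1.09 and -0.42 to 0.84 for Sema3c, from -0.07 to 0.26 and -0.14 to 0.22 for Plxnb2, from -0.51 to 0.68 and -0.53 to 0.50 for Efnb2 (-0.11 with the block and without mouse 58), from -0.05 to 0.37 and -0.10 to 0.28 for Ephb4, from -0.58 to 2.80 and -0.44 to 1.98 for Slit2, and from -0.21 to 1.97 and -0.31 to 1.39 for Robo2. The cause of these changes was not tested. With a pseudocount of 2 CPM the mean within-mouse log2 ratio of Efnb3 was 0.65, against 1.19 with 0.5 CPM.

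With 4 mice, differences in members under about 1 CPM rest on few counts, and the 21 untested members were not assessed (16 had 35 counts or fewer in each library). Fold changes carried by mouse 57 rest on 1 library, which has no replicate.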
